A study of Mus musculus with 6 samples.

Results

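The claudins described here are 10 genes of mouse colon epithelium, Cldn1, Cldn2, Cldn3, Cldn4, Cldn7, Cldn8, Cldn12, Cldn13, Cldn15 and Cldn23, among 55487 genes counted by RNA-seq. Each was found by its gene symbol, and each symbol had 1 row in the table. The study asked how loss of the histone methyltransferase Nsd2 from the intestinal epithelium alters colitis. Its RNA-seq arm held 6 libraries of colon epithelial cells (IECs), all from mice treated with dextran sodium sulphate (DSS), a polymer given in the drinking water that injures the colonic epithelium. The control genotype, Nsd2 f/f (3 libraries), carries loxP sites around both Nsd2 alleles and no Cre. The other, Nsd2 Vil-KO (3 libraries), carries the same floxed alleles and a Cre driven by the Villin promoter. Both genotypes were C57BL/6J littermates by the study's methods, which give 2% DSS to mice at 2 months of age. The sources used here do not state the day on which cells for these libraries were taken, and no DSS-free libraries were analysed here. The Villin promoter is active in intestinal epithelial cells, so any other cells in a preparation keep Nsd2. The labels do not say that the libraries came from separate animals, so p-values measure the spread between these libraries.

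Claudins are tetraspan membrane proteins whose strands form the tight junction, the seal between neighbouring epithelial cells. Some members tighten that seal, whereas others line pores that let small cations and water pass between cells. Cldn2 and Cldn15 form cation pores, Cldn2 mainly in intestinal crypts and Cldn15 most abundantly in the small intestine. Cldn1, Cldn3, Cldn4, Cldn7 and Cldn8 are grouped as sealing members. Cldn12, Cldn13 and Cldn23 were placed in neither class here. In colitis, a rise of CLDN2 and a loss of sealing claudins are the classical description of the leaky epithelium.

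The libraries held 15439123 to 20350539 counted reads, and 3 counts, used as the floor of detection, corresponded to 0.146 to 0.242 CPM, the unit of read counts scaled to a common library size. These floors cover counting error only. Levels are CPM after TMM normalisation, and comparisons between genes use CPM per kilobase of exon. The floxed gene was lower in every Nsd2 Vil-KO library, at 24.2, 10.4 and 20.8 CPM of Nsd2 against 47.9, 51.2 and 24.6 CPM in Nsd2 f/f (log2 fold change −1.16, SE 0.39, edgeR adjusted p = 0.992, exact two-sided permutation p = 0.1, the smallest that 3 against 3 allows). Nsd2 f/f replicate 3 lay only just above Nsd2 Vil-KO replicate 1. A pair of libraries stood apart from the other 4. Xist, the RNA that coats the inactive X chromosome, had 3684 counts in Nsd2 Vil-KO replicate 2, 4296 counts in Nsd2 f/f replicate 3 and 1 to 5 counts in the others. Mitochondrial genes took 19.6% of the counts in Nsd2 f/f replicate 3 and 5.51% to 9.13% elsewhere. The pair also had the fewest genes counted (19609 in Nsd2 Vil-KO replicate 2 and 19382 in Nsd2 f/f replicate 3). The lowest sums of crypt and proliferation markers, given below, were in this pair as well. Over all tested genes the pair was nevertheless not close. Spearman's rho was 0.927 within the pair and 0.972 to 0.984 among the other 4. Ratios within the pair thus set 1 library against 1 library with a different profile over all tested genes. The pan-epithelial markers (Epcam, Krt8, Krt18, Krt19, Cdh1 and Vil1) summed to 10303 to 16302 CPM, so the labelled cell type was well represented in every library. For the main results, values are also given without this pair.

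Of the 10 claudins, 8 were expressed well above the floor and passed the filter on low counts. Cldn1, the claudin of the epidermal barrier, had 2, 4 and 0 counts in Nsd2 f/f and 0, 1 and 2 counts in Nsd2 Vil-KO. Only 1 library exceeded 3 counts of Cldn1, so no difference could be detected at this depth. By Western blot, the study reported less Claudin-1 protein in DSS-treated Nsd2 Vil-KO mice. RNA is another measure, and these counts cannot speak to that result. Cldn13, a member that mice have and humans lack, had 0 counts in every library, which allows at most the 0.146 to 0.242 CPM given above. Both stayed out of the test. Together the 10 claudins took 0.194% to 0.268% of all counted reads, lowest in Nsd2 f/f replicate 3.

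Cldn7 and Cldn3 made up most of the claudin transcripts. Cldn7, the member found along the whole lateral membrane, averaged 519.6 ± 29.4 CPM per kilobase in Nsd2 f/f and 566.4 ± 46.7 in Nsd2 Vil-KO (SD, n = 3 each). Cldn3 averaged 506.3 ± 126.5 and 507.4 ± 119.8 CPM per kilobase. Their order turned on the library, with Cldn7 at 1.16 to 1.28 times the level of Cldn3 in 4 libraries and at 0.963 times in Nsd2 Vil-KO replicate 2 and 0.815 times in Nsd2 f/f replicate 3. Of the summed claudin level per kilobase, Cldn7 took 37.8% to 44.3% and Cldn3 34.7% to 46.5%. A second tier held the pore-forming members and Cldn8. In Nsd2 f/f, Cldn2 averaged 77.0 ± 28.7, Cldn8 64.8 ± 13.9 and Cldn15 60.4 ± 4.43 CPM per kilobase, and these neighbours did not differ beyond their spread. In Nsd2 Vil-KO the same order by level was Cldn8 at 100.7 ± 25.5, Cldn4 at 63.3 ± 77.6, Cldn2 at 61.3 ± 24.7 and Cldn15 at 41.8 ± 31.0 CPM per kilobase, again with overlapping spreads. At the lower end in Nsd2 f/f, Cldn23 at 18.4 ± 2.49, Cldn12 at 15.9 ± 1.59 and Cldn4 at 15.1 ± 7.20 CPM per kilobase could not be ordered. Cldn12 and Cldn23 had 19.3 ± 3.70 and 17.8 ± 4.15 CPM per kilobase in Nsd2 Vil-KO. Cldn4 was the member of rank 3 in Nsd2 Vil-KO replicate 2 and of rank 6 or 8 elsewhere.

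**Figure D1:**
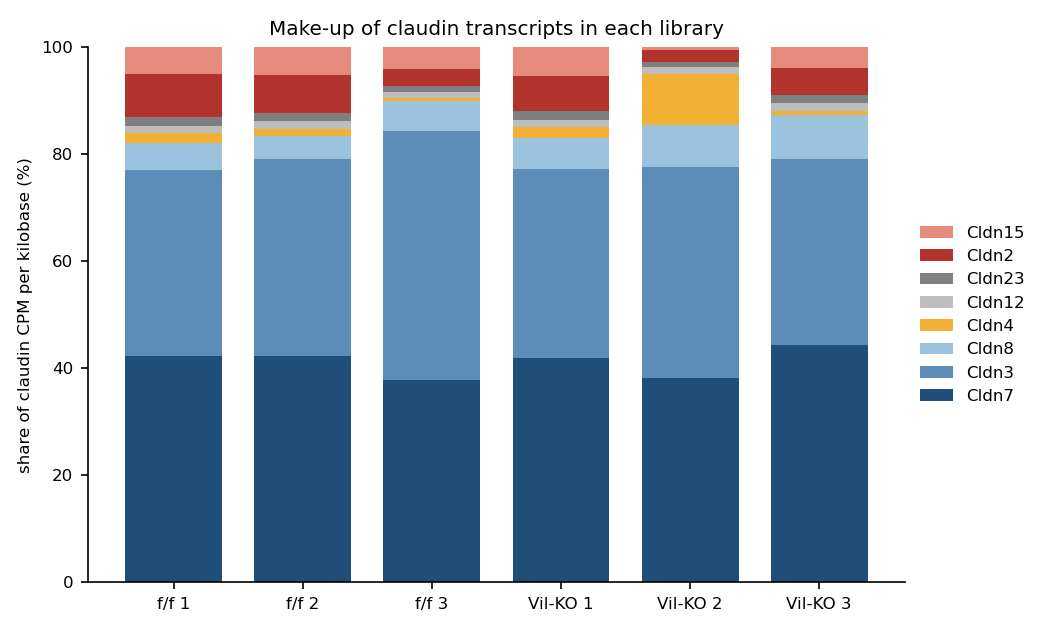
Stacked bars give the share of each claudin in the summed claudin CPM per kilobase of exon (%, vertical axis) for each of the 6 libraries (horizontal axis). Cldn7 and Cldn3 fill most of every bar, and Nsd2 Vil-KO replicate 2 has the widest Cldn4 segment (9.37%) and the narrowest Cldn15 segment (0.538%).

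Between genotypes, no claudin separated the 3 Nsd2 f/f from the 3 Nsd2 Vil-KO libraries, and no claudin passed an adjusted p below 0.05. Cldn8, a sealing member of the distal colon that restricts sodium back-leak, was the 1 member of 8 to pass the study's screening criterion (more than 1.2-fold in either direction, with an unadjusted p below 0.05), with a higher level in Nsd2 Vil-KO. Across all 14650 genes tested, 3.29% passed that criterion, 241 higher and 241 lower. By edgeR, 0 genes (0%) had an adjusted p below 0.05, where 482 had an unadjusted p below 0.05 and DESeq2 called 4 genes after adjustment. CPM did not overlap between genotypes for 0 of the 8 claudins and for 9.9% of all genes tested. The log2 fold changes of the 8 claudins ran from −0.53 (Cldn15) to 2.06 (Cldn4), 5 of them above 0 and 3 below, with a median of 0.06 beside 0.0012 over all genes tested. In bulk libraries, fewer cells of a type and less RNA per cell cannot be told apart.

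**Figure D2:**
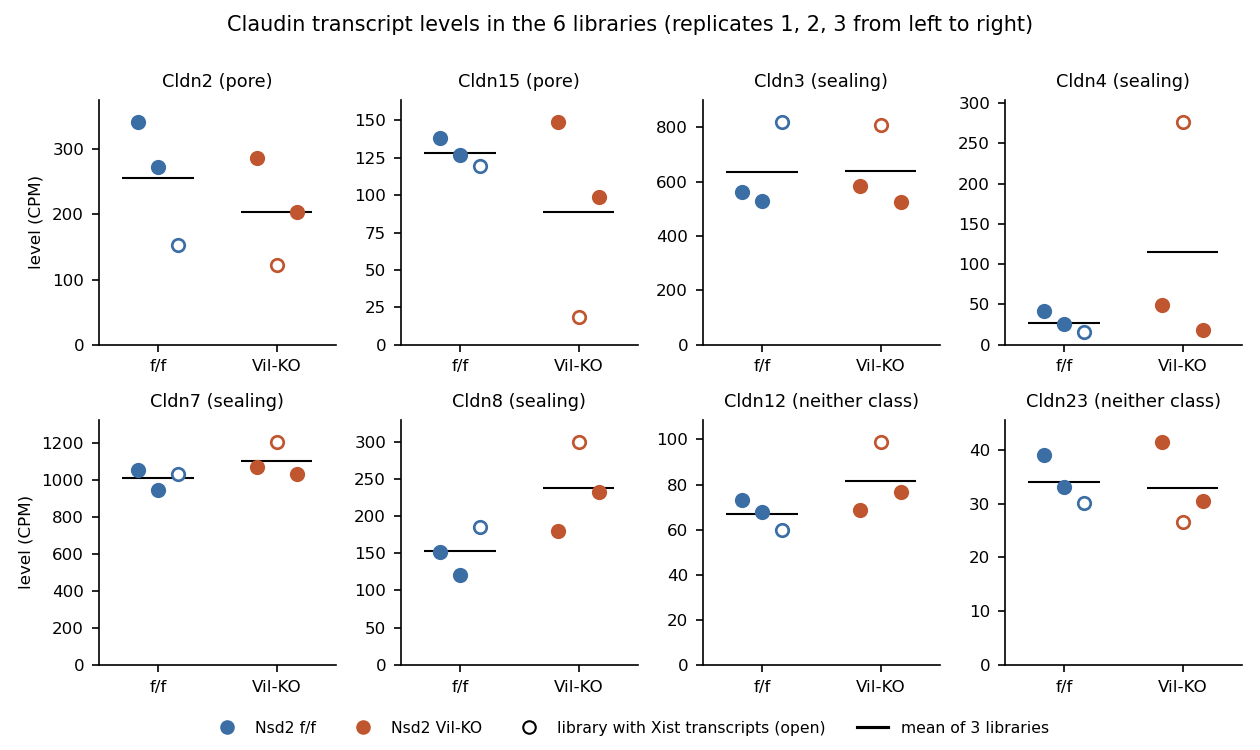
Each panel gives the level of 1 claudin (CPM, vertical axis from 0) in the 3 Nsd2 f/f and 3 Nsd2 Vil-KO libraries, with replicates from left to right, group means as lines and open circles for the libraries with Xist transcripts. The genotypes overlap in all 8 panels, and the Cldn4 and Cldn15 panels each have 1 Nsd2 Vil-KO library far from the rest.

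The promoters of Cldn2, Cldn15 and Cldn4 are printed because these are the pore-forming members and the sealing member whose levels lay furthest apart between libraries. The sequences are the 250 bases before the RefSeq start sites on GRCm38.p6, read 5′ to 3′ on the gene's strand. The windows are chrX:139800558-139800807 (+) for Cldn2, chr5:136967619-136967868 (+) for Cldn15 and chr5:134946935-134947184 (−) for Cldn4. Capitals mark matches, on either strand, to a TATA box (TATAAA), a GC box (GGGCGG) or an AP-1 element (TGANTCA).
Cldn2: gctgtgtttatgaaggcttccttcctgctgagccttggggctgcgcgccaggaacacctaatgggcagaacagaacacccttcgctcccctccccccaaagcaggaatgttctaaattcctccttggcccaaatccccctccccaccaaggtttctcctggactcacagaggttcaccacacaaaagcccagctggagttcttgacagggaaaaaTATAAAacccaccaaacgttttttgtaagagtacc
Cldn15: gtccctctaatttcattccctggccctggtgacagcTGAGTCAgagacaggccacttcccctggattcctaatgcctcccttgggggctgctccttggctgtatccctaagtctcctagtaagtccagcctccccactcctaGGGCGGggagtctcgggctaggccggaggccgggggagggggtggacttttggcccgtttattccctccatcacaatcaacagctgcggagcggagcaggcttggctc
Cldn4: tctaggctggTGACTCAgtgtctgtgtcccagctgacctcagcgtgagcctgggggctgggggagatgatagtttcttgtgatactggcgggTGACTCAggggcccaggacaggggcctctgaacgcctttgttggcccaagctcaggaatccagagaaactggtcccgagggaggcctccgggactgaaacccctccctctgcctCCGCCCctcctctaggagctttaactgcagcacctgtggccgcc
The Cldn2 window held TATAAA 35 bases before the start, letters found in 12.4% of 32851 mouse promoter windows of this length. Cldn15 held an AP-1 match 214 bases and a GC box 108 bases before the start. Cldn4 held AP-1 matches 240 and 158 bases and a GC box 44 bases before its start. An AP-1 match was found in 6.75% of all windows, at least 2 in 0.338%, and a GC box in 32.7%. Searches for CDX (TTTATNG, in 9.81% of windows), the short HNF1 element (GTTAAT, 6.43%), the element of GATA factors (AGATAA, 9.99%) and STAT (TTCNNNGAA, 7.02%) gave no match in these 3 windows, which says only that the letters are not there. The GC content was 52% for Cldn2, 60.8% for Cldn15 and 62% for Cldn4, beside a median of 52.4%. Matches are descriptions of sequence, and binding was not measured here. Positions hold for the RefSeq starts only. In the GENCODE annotation the genes start elsewhere, at chrX:139800828 for Cldn2 and chr5:136966616 for Cldn15. Windows for 7 of the 10 members were in the RefSeq table; those for Cldn8, Cldn13 and Cldn23 were not used here.

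Among the pore-forming claudins, Cldn2 was measured at 342.1, 272.6 and 153.7 CPM in Nsd2 f/f and at 286.5, 122.0 and 203.5 CPM in Nsd2 Vil-KO. The gene lies on chromosome X, at chrX:139800828-139811386 of GRCm38. The genotypes overlapped widely, and the lowest library of each genotype was the one with Xist transcripts. The means were 256.1 ± 95.3 and 204.0 ± 82.2 CPM (SD, n = 3 each), a log2 fold change of −0.33 (SE 0.40, edgeR adjusted p = 0.992). The ratio of Nsd2 Vil-KO to Nsd2 f/f was 0.794 within the pair with Xist transcripts and 0.797 among the other 4 libraries. Leaving out single libraries moved the log2 fold change between −0.65 and −0.06, always below 0.

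Cldn15 was measured at 138.3, 126.9 and 119.6 CPM in Nsd2 f/f and at 149.0, 18.6 and 98.7 CPM in Nsd2 Vil-KO. It lies on chromosome 5, at chr5:136966616-136975858, on the plus strand. A single library set its spread. Nsd2 Vil-KO replicate 2 lay 5.31-fold below the lowest of the other 5, whereas Nsd2 Vil-KO replicate 1 was the highest of all 6. The means were 128.3 ± 9.42 and 88.8 ± 65.8 CPM, and the log2 fold change was −0.53 (SE 0.62, edgeR adjusted p = 0.992). Without Nsd2 Vil-KO replicate 2 it was −0.05 and without Nsd2 Vil-KO replicate 1 −1.13, and it was −0.90 with the Xist covariate. Within the pair with Xist transcripts the Nsd2 Vil-KO library had 0.155 times the level of the Nsd2 f/f library, and among the other 4 the ratio was 0.934. The low Cldn15 mean of Nsd2 Vil-KO thus came mainly from 1 of its 3 libraries.

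The balance between the pore-forming pair also moved in that library. Per kilobase, Cldn2 stood at 1.58, 1.37 and 0.820 times Cldn15 in Nsd2 f/f and at 1.23, 4.19 and 1.32 times Cldn15 in Nsd2 Vil-KO. The high value of 4.19 came from Cldn15, since Cldn2 was itself at its lowest in Nsd2 Vil-KO replicate 2.

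Of the sealing claudins, Cldn3, which like Cldn4 binds Clostridium perfringens enterotoxin, was measured at 561.9, 529.8 and 820.4 CPM in Nsd2 f/f and at 583.5, 809.4 and 523.3 CPM in Nsd2 Vil-KO. Both genotypes thus had a pair of libraries at a like level and 1 library with Xist transcripts well above it. The means, 637.4 ± 159.3 and 638.8 ± 150.9 CPM, gave a log2 fold change of 0.0032 (SE 0.28, edgeR adjusted p = 0.999). Leaving out 1 library in turn moved it from −0.20 to 0.23. The single exon of Cldn3 (chr5:134986214-134987472) shares 40 bases with Wbscr25 on the opposite strand, and the use of strand in counting is not given in the sources used here.

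Cldn7, at chr11:69964779-69967885, was the steadiest sealing member. It was measured at 1055, 947.2 and 1034 CPM in Nsd2 f/f and at 1069, 1207 and 1035 CPM in Nsd2 Vil-KO. All 3 Nsd2 Vil-KO values lay above 2 of the Nsd2 f/f values, and Nsd2 f/f replicate 1 fell between them. The means were 1012 ± 57.2 and 1103 ± 91.1 CPM, and the log2 fold change was 0.12 (SE 0.22, edgeR adjusted p = 0.995).

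Cldn8, at chr16:88560828-88563183, was measured at 152.0, 120.3 and 185.7 CPM in Nsd2 f/f and at 179.5, 299.5 and 232.5 CPM in Nsd2 Vil-KO. Only Nsd2 Vil-KO replicate 1 fell inside the Nsd2 f/f range, just under Nsd2 f/f replicate 3. The means were 152.6 ± 32.7 and 237.1 ± 60.1 CPM, and the log2 fold change was 0.64 (SE 0.26, edgeR unadjusted p = 0.0457, adjusted p = 0.992). The exact two-sided permutation p was 0.2. The Nsd2 Vil-KO library was 1.61 times the Nsd2 f/f library within the pair with Xist transcripts, and the ratio was 1.51 among the other 4, where both Nsd2 Vil-KO libraries lay above both Nsd2 f/f libraries. With the presence of Xist transcripts as a covariate in edgeR, the log2 fold change was 0.63 (SE 0.16, unadjusted p = 0.00789, adjusted p = 0.627), beside 7.82% of all genes past the criterion in that fit. Leaving out 1 library in turn gave 0.43 to 0.80, and the criterion was no longer met without Nsd2 Vil-KO replicate 2, Nsd2 Vil-KO replicate 3, Nsd2 f/f replicate 1 or Nsd2 f/f replicate 2. As a share of the summed claudin level per kilobase, Cldn8 took 5.03%, 4.45% and 5.62% in Nsd2 f/f and 5.81%, 7.82% and 8.24% in Nsd2 Vil-KO. The genotypes did not overlap in this share and overlapped in the shares of the other 9, beside 9.9% of all genes tested without overlap in CPM, so 1 of 10 is near the background. The share was singled out after the values were seen (exact two-sided permutation p = 0.1, the smallest possible).

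Cldn4 was measured at 41.2, 25.9 and 15.2 CPM in Nsd2 f/f and at 49.4, 276.6 and 18.6 CPM in Nsd2 Vil-KO. Nsd2 Vil-KO replicate 2 lay 5.60-fold above the highest of the other 5 libraries, which overlapped between genotypes. The means were 27.5 ± 13.1 and 114.9 ± 140.9 CPM, and the log2 fold change was 2.06 (SE 0.93, edgeR unadjusted p = 0.0618, adjusted p = 0.992). Without Nsd2 Vil-KO replicate 2 it was 0.31, and among the 4 libraries without Xist transcripts it was 0.03. Within the pair with Xist transcripts, the Nsd2 Vil-KO library had 18.2 times the Cldn4 level of the Nsd2 f/f library, which was the lowest of all 6. The gene is a single exon at chr5:134945119-134946934. It lies 39279 bases from Cldn3 and 29592 bases from Cldn13, so 3 members stand side by side on chromosome 5. With 0 counts throughout, Cldn13 cannot show whether it moves with its neighbours. Cldn3 was high in both libraries with Xist transcripts, at 809.4 CPM in Nsd2 Vil-KO replicate 2 and 820.4 CPM in Nsd2 f/f replicate 3. It was at 523.3 to 583.5 CPM in the other 4. Cldn4 was highest in the first of this pair and lowest in the second. Pearson's r between Cldn3 and Cldn4 was 0.40 over the 6 libraries.

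Of the members in neither class, Cldn12, a claudin without the usual PDZ-binding end, was measured at 73.3, 68.0 and 59.9 CPM in Nsd2 f/f and at 68.7, 98.9 and 76.7 CPM in Nsd2 Vil-KO. The highest value was again Nsd2 Vil-KO replicate 2. The log2 fold change was 0.28 (SE 0.20, edgeR adjusted p = 0.992), and 0.05 among the 4 libraries without Xist transcripts. Cldn23, a single-exon member of the differentiated colonic surface, was measured at 39.1, 33.0 and 30.1 CPM in Nsd2 f/f and at 41.5, 26.7 and 30.6 CPM in Nsd2 Vil-KO. Both genotypes spanned nearly the same range of Cldn23, and the log2 fold change was −0.05 (SE 0.22, edgeR adjusted p = 0.999).

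**Figure D3:**
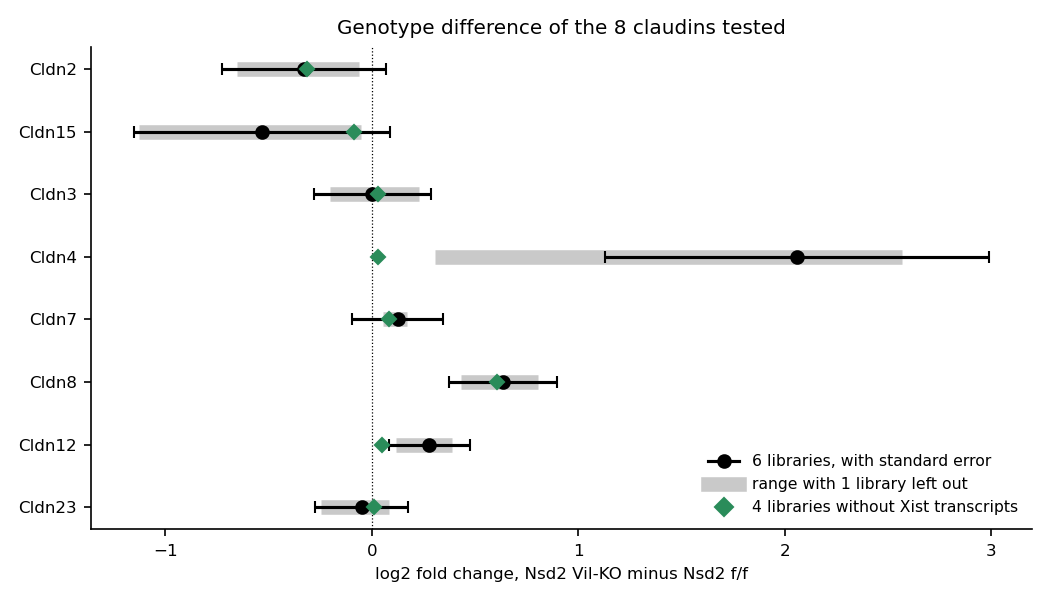
Points give the log2 fold change of each claudin (Nsd2 Vil-KO minus Nsd2 f/f, horizontal axis) with its standard error in 6 libraries, grey bars the range with 1 library left out, and diamonds the 4 libraries without Xist transcripts. Cldn8 has like values in 6 and in 4 libraries, whereas Cldn4 goes from 2.06 to 0.03.

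To set the pore-forming against the sealing claudins, the mean log2(CPM + 1) of Cldn1, Cldn3, Cldn4, Cldn7 and Cldn8 was subtracted from that of Cldn2 and Cldn15 in each library. This contrast was 1.38, 1.36 and 0.84 in Nsd2 f/f and 1.22, −1.65 and 0.89 in Nsd2 Vil-KO. It was above 0 in 5 libraries and below 0 in Nsd2 Vil-KO replicate 2. The sealing mean is lowered by Cldn1, which was too low to be tested. The sign therefore does not say which class had more transcripts. Replicates 1 and 3 of Nsd2 Vil-KO lay inside the Nsd2 f/f range. The means were 1.19 ± 0.31 and 0.15 ± 1.57 (SD, n = 3 each), a difference of −1.04 that was smaller than the pooled SD of 1.13. Without Nsd2 Vil-KO replicate 2 the difference was −0.14, and among the 4 libraries without Xist transcripts it was −0.31. Both sides of the contrast moved in Nsd2 Vil-KO replicate 2. Its pore-forming mean was 5.62 against 7.09 to 7.77 elsewhere, and its sealing mean was 7.27 against 6.18 to 6.48. Single members led both moves, with Cldn15 at 18.6 against 98.7 to 149.0 CPM and Cldn4 at 276.6 against 15.2 to 49.4 CPM. Cldn7 was at 1207 against 947.2 to 1069 CPM. Per kilobase, Cldn2 and Cldn15 made up 13.5%, 12.7% and 7.47% of pore-forming plus sealing transcripts in Nsd2 f/f and 12.3%, 2.86% and 9.25% in Nsd2 Vil-KO. The lowest share of each genotype was again the library with Xist transcripts. Cldn2 stood at 3.17 to 5.96 times Cldn4 per kilobase in 5 libraries and at 0.241 times in Nsd2 Vil-KO replicate 2.

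**Figure D4:**
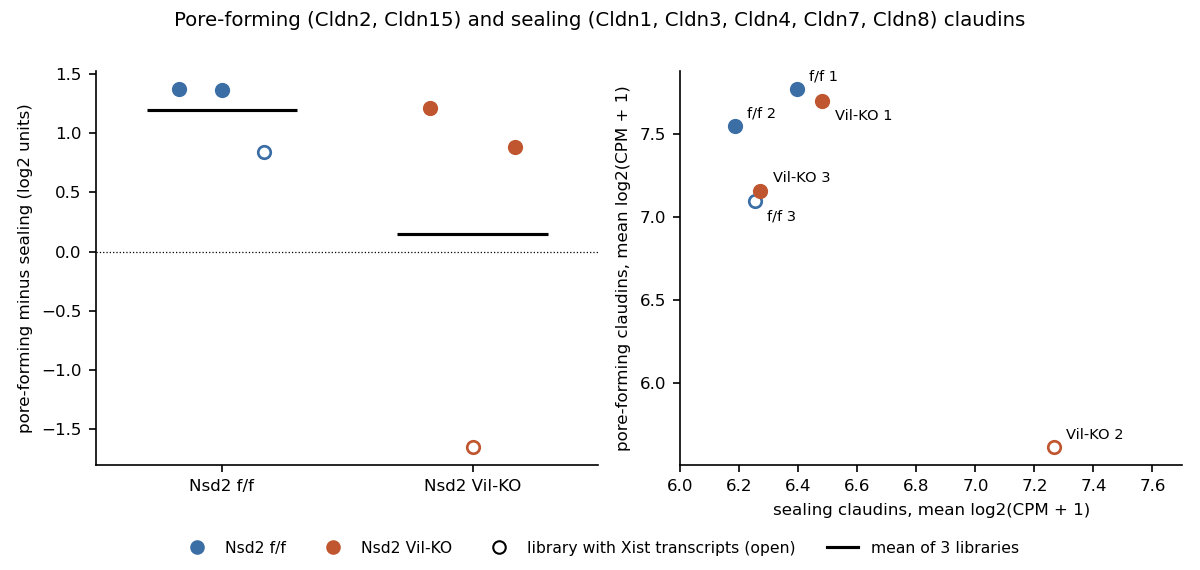
Left, the pore-forming minus sealing contrast (log2 units, vertical axis) in each library of the 2 genotypes, with means as lines. Right, the mean log2(CPM + 1) of the pore-forming claudins (vertical axis) against that of the sealing claudins (horizontal axis), in which 5 libraries lie together and Nsd2 Vil-KO replicate 2 lies low and to the right.

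Across the 6 libraries, some pairs of members varied together and others did not, given here as a description without a test since the points share libraries and Nsd2 Vil-KO replicate 2 is far from the rest. Log2 CPM of Cldn2 went with that of Cldn23 (Pearson's r = 0.90) and against that of Cldn3 (r = −0.81). Cldn4 went with Cldn12 (r = 0.86) and Cldn12 against Cldn15 (r = −0.88). Other pairs were weak, among them Cldn3 with Cldn12 (r = 0.18), Cldn4 with Cldn23 (r = −0.24) and Cldn2 with Cldn4 (r = −0.37). Among the 9236 genes that averaged 10 CPM or more, those most like Cldn2 over the 6 libraries were the Notch ligand Dll4 (r = 0.997), the Notch-modifying enzyme Lfng (r = 0.989) and the collagen gene Col1a2 (r = 0.985). In the 4 libraries without Xist transcripts, r was 0.987 for Dll4 and 0.984 for both others. Among 9229 genes, those most like the pore-forming minus sealing contrast were Zfp950 (r = 0.998), Pced1a (r = 0.997) and Lgals12 (r = 0.996). In the 4 libraries, r was 0.994 for Zfp950, 0.924 for Pced1a and 0.854 for Lgals12. All these genes were picked on r over the 6 libraries, which include those 4, so the later values are no independent check. Col1a2 reached the mean of 10 CPM through its high libraries, with 46.1 CPM in Nsd2 f/f replicate 1. It had 0.388 CPM in Nsd2 Vil-KO replicate 2 and 1.37 CPM in Nsd2 f/f replicate 3.

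Cell type markers differed between the libraries in which claudins moved, and their part in the claudin levels was not tested. The 10 crypt base and progenitor markers summed to 527.9, 506.3 and 262.4 CPM in Nsd2 f/f and to 524.7, 257.9 and 476.0 CPM in Nsd2 Vil-KO. Both libraries with the lowest Cldn2 thus had the lowest crypt sums, with Lgr5, the crypt base stem cell marker, at 7.11 and 0.111 CPM against 12.6 to 14.9 CPM elsewhere. The list did not move as one in Nsd2 Vil-KO replicate 2. Sox9 was at its highest of the 6 libraries there (90.6 against 41.4 to 83.5 CPM). The 10 surface colonocyte markers summed to 29679 CPM in Nsd2 f/f replicate 3 and to 12283 to 16270 CPM in the other 5, led by Lypd8. In Nsd2 Vil-KO replicate 2, Lypd8 gave 13592 of the 16270 CPM. Aqp8 was at its lowest there (27.9 against 181.8 to 972.8 CPM), whereas Car1, at 598.6 CPM, was exceeded only in Nsd2 f/f replicate 3. Krt20 in Nsd2 f/f replicate 3 (1137 CPM) lay below Nsd2 Vil-KO replicates 1 and 3 (1265 and 1432 CPM). The 7 regenerative epithelium markers summed to 3034 CPM in Nsd2 Vil-KO replicate 2 and to 692.1 to 1574 CPM elsewhere, led by Ly6a at 1997 CPM and Anxa1 at 992.0 CPM. Not all of that list was high there, since Clu was at its lowest of the 6 libraries (0.721 against 2.26 to 5.70 CPM). The 10 leukocyte markers summed to 2356 CPM in Nsd2 Vil-KO replicate 2 and to 223.8 to 914.9 CPM elsewhere, led by Ly6g at 1355 CPM. The pan-leukocyte marker Ptprc was at 5.71 CPM in that library and at 5.74 to 30.7 CPM elsewhere. The 7 proliferation markers summed to 832.3, 865.4 and 231.7 CPM in Nsd2 f/f and to 801.4, 398.9 and 1051 CPM in Nsd2 Vil-KO. The 5 distal colon Hox genes, read beside Cldn8, summed to 435.7, 554.4 and 885.1 CPM in Nsd2 f/f and to 386.6, 472.1 and 454.5 CPM in Nsd2 Vil-KO. The 8 small intestine genes, read beside Cldn15, summed to 33.7 to 134.8 CPM over the 6 libraries.

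The 7 goblet markers summed to 8892 to 10524 CPM in Nsd2 Vil-KO and 13126 to 15394 CPM in Nsd2 f/f. Of these 7, Clca1 was lower by the criterion and the others did not pass it, with Muc2, for example, at 5548 CPM in Nsd2 Vil-KO replicate 1 and 3512 CPM in Nsd2 f/f replicate 3. The 4 tuft markers summed to 16.3 to 33.7 CPM in Nsd2 Vil-KO and 6.15 to 9.37 CPM in Nsd2 f/f. Of these 4, Avil alone passed the criterion, and it gave 30.4 of the 33.7 CPM in Nsd2 Vil-KO replicate 2, where Dclk1 was at 1.78 CPM. The 6 enteroendocrine markers summed to 107.8 to 134.4 CPM in Nsd2 Vil-KO and 137.7 to 219.9 CPM in Nsd2 f/f. None of these 6 met the criterion. Chgb had a log2 fold change of 0.08 and the others had values below 0. Pyy gave 92.7 of the 219.9 CPM in Nsd2 f/f replicate 3. A background share for sums over lists was not computed, and these sums were not tested. The 8 fibroblast and smooth muscle markers summed to 265.6 CPM in Nsd2 f/f replicate 1 and 6.62 to 76.9 CPM elsewhere. The squamous list, a source of Cldn1 and Cldn4 in other epithelia, summed to 5.49 to 29.4 CPM over 9 genes with 2 at 0 in every library. In Nsd2 Vil-KO replicate 2, Dsg3 gave 17.2 of the 29.4 CPM. Krt13, at 2.63 CPM or less, was higher by the criterion (log2 fold change 1.83) and no other of the list met it. Endothelial markers summed to 5.55 to 8.47 CPM, with Vwf higher and Pecam1 lower by the criterion.

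Outside the 10 members, the table listed another 25 claudin genes, of which 13 had 0 counts in all libraries and 10 had at most 16 counts in any. The other 2 were tested. Cldn14, a sealing claudin of the inner ear and kidney, was measured at 11.7, 11.2 and 15.1 CPM in Nsd2 f/f and at 8.24, 3.99 and 13.3 CPM in Nsd2 Vil-KO (log2 fold change −0.57, SE 0.43, edgeR adjusted p = 0.992). Its log2 fold change was −0.23 without Nsd2 Vil-KO replicate 2, −1.04 without Nsd2 Vil-KO replicate 3, where it passed the criterion, and −0.08 in the 4 libraries without Xist transcripts. Cldn10, whose splice forms make cation or anion pores, had 48, 25 and 8 counts in Nsd2 f/f and 39, 146 and 21 counts in Nsd2 Vil-KO (log2 fold change 1.24, SE 0.83, edgeR adjusted p = 0.992). Without Nsd2 Vil-KO replicate 2 its log2 fold change was −0.066. Nsd2 Vil-KO replicate 2 was the lowest library for Cldn14 and the highest for Cldn10, and the genotypes overlapped for both.

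Partners of claudins in the tight junction were read against the 3.29% of all genes tested that met the screening criterion. Of 26 partners listed, 21 were tested, and 1 was higher and 0 lower by that criterion, a count near the background, with a median log2 fold change of 0.02. The 1 was Pard6b, a polarity protein, at 34.8, 29.8 and 19.4 CPM in Nsd2 f/f and 41.4, 73.1 and 34.5 CPM in Nsd2 Vil-KO (log2 fold change 0.82, SE 0.34, edgeR adjusted p = 0.992). It passed in 9 of 18 alternatives, with 0.44 without Nsd2 Vil-KO replicate 2 and 0.24 in the 4 libraries without Xist transcripts, neither past the criterion, which was also missed without Nsd2 Vil-KO replicate 1, Nsd2 f/f replicate 2 or Nsd2 f/f replicate 3. The scaffold Tjp1, which ties claudins to actin, was at 103.2, 113.6 and 116.8 CPM in Nsd2 f/f and 121.9, 110.8 and 139.2 CPM in Nsd2 Vil-KO. Its log2 fold change was 0.16 (SE 0.17). The study reported less of the protein of Tjp1, ZO-1, in Nsd2 Vil-KO mice by Western blot, whereas only RNA was read here. Log2 fold changes were 0.01 (SE 0.16) for occludin (Ocln), −0.09 (SE 0.18) for tricellulin (Marveld2) and 0.18 (SE 0.22) for the junctional adhesion molecule F11r. None of these 4 met the criterion in the fit of all 6 libraries.

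Genes that act on claudin proteins and genes were read in the same way, against the same 3.29%. Of 14 genes of claudin turnover and stability, 1 was higher and 0 lower by the criterion. Rock2, a kinase that acts on junctional actomyosin, was at 115.8, 108.0 and 98.9 CPM in Nsd2 f/f and at 143.1, 151.2 and 143.4 CPM in Nsd2 Vil-KO, above every Nsd2 f/f library (log2 fold change 0.44, SE 0.16, edgeR adjusted p = 0.992). The criterion was met in 11 of 18 alternatives, and of the 6 that leave out 1 library, it was met only without Nsd2 Vil-KO replicate 2. Epcam, which binds and stabilises Cldn7, had a log2 fold change of 0.02 (SE 0.27). Of 22 transcription factors, 18 were tested and 0 met the criterion. Cdx2, an intestinal factor that acts on the Cldn2 promoter, was at 99.3, 90.7 and 102.4 CPM in Nsd2 f/f and at 158.2, 179.3 and 82.7 CPM in Nsd2 Vil-KO (log2 fold change 0.52, SE 0.29, and from 0.25 to 0.79 over the alternatives). Log2 fold changes were −0.14 (SE 0.32) for Hnf4a and −0.14 (SE 0.22) for Grhl2, factors of epithelial identity. Of 13 cytokine receptors and STAT factors known to act upstream of Cldn2, 12 were tested and 0 met the criterion, with log2 fold changes from −0.14 to 0.77. Over these 4 lists, 0 genes had an edgeR adjusted p below 0.05.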

How the data were processed

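For 6 libraries the authors deposited raw counts, the whole number of reads on each Ensembl gene. By their methods, polyA RNA was made into directional libraries, trimmed and aligned to GRCm38 with HISAT2; the labels name another library kit. Which program counted the reads, and whether by strand, is not given in the sources used here. All 6 columns were used.

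The analysis used edgeR 4.0.16 under R 4.3.3 (TMM, filterByExpr by genotype, 14650 genes, robust quasi-likelihood test of edgeR 4, Benjamini-Hochberg over all genes tested). The study's screening criterion asks for more than 1.2-fold and an unadjusted p below 0.05. Single genes were also compared by exact permutation. The contrast used a pseudocount of 1. Exon lengths came from GENCODE on GRCm38 and promoters from RefSeq. The test was tried on simulated data first. The members, lists and tests were chosen with earlier results of these data known. Named genes were Nsd2, the claudins, other claudins tested, list members past the criterion with 8 fixed partners and factors, and the 3 genes most like Cldn2 or the contrast. Marker genes were named where they led their list in a library. Lgr5, Sox9, Aqp8, Car1, Krt20, Ptprc, Clca1, Muc2, Avil, Dclk1, Clu, Chgb, Pyy, Dsg3, Krt13, Vwf and Pecam1 were added after their values were seen. Alternatives covered normalisation, filter, model (DESeq2 1.42.0, limma 3.58.1 voom), a replicate block, an Xist covariate and left-out libraries; the earlier edgeR test was added after the data were seen. Figures were drawn with matplotlib 3.10.9.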

Additional observations from a re-analysis of the deposited data

How the results depend on the processing

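With 3 libraries a genotype, 1 library decided the claudin values that moved most. Leaving out 1 library in turn moved the contrast of pore-forming and sealing claudins from −1.57 to −0.14, the claudins past the screening criterion from 0 to 2, all genes past it from 323 to 769 (769 without Nsd2 Vil-KO replicate 2) and Nsd2 from −1.42 to −0.87. Cldn8 passed the criterion in 13 of 18 alternatives. Cldn4 passed it in 3: DESeq2, which thus called 2 claudins, and without Nsd2 Vil-KO replicate 1 or 3. Genes past the criterion numbered 1646 in the 4 libraries without Xist transcripts, 1440 with limma-voom, 1145 with the Xist covariate and 861 without a filter. DESeq2 gave 4 genes with an adjusted p below 0.05. Nsd2 was no longer past the criterion by library size only (−1.12) or without Nsd2 f/f replicate 1 or 2, and by library size only Cldn23 changed sign (0.0048). Same-numbered libraries of the genotypes did not deviate together (r = 0.287, −0.376 and −0.174), so numbers were not taken as pairs; a replicate block gave 303 genes and 0 claudins past the criterion. Cldn10 (1.24 in 6 libraries) ran from −0.066, without Nsd2 Vil-KO replicate 2, to 1.74. Values near 0 changed sign without 1 library: Cldn3 −0.20 to 0.23, Cldn23 −0.25 to 0.082, Ocln −0.041 to 0.082, Marveld2 −0.17 to 0.021, F11r −0.019 to 0.28, Epcam −0.15 to 0.10, Hnf4a −0.34 to 0.12 and Grhl2 −0.27 to 0.051. In the 4 libraries the sign changed for Cldn23 (0.010), Cldn10 (−0.38), F11r (−0.083), Epcam (−0.13), Hnf4a (0.28) and Grhl2 (0.026), and with limma-voom for Cldn10 (−0.24), F11r (−0.064), Epcam (−0.14) and Hnf4a (0.19). The causes were not tested.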
